A study of Mus musculus with 36 samples.

Results

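Mouse dendritic cells exposed to PAM and Sendai virus together were compared with cells exposed to PAM alone and with cells exposed to the virus alone. The members are 6 libraries of 36 in the series, chosen by their labels alone: 2 that received PAM and SeV, 2 that received PAM and 2 that received SeV (SeV is the label for Sendai virus). The cells were bone marrow-derived dendritic cells of female C57BL/6J mice aged 6 to 8 weeks, grown with GM-CSF and stimulated for 6 h, and chromatin accessibility was read by ATAC-seq, in which a transposase cuts and tags open DNA. All groups share this strain, culture and duration, and none carries an altered allele. An unstimulated control of 2 libraries served to say which peaks each ligand opened by itself. As separate libraries, 2 with depleted zymosan plus SeV, 2 with depleted zymosan, 2 with PAM plus 3',3'-cGAMP and 2 with 3',3'-cGAMP gave the effect of the virus and of PAM on other backgrounds. The sources used here do not say whether the 2 libraries of a group came from separate mice or cultures, so p-values measure the spread between libraries, which may be technical. Doses are not given in the sources used here. Cultures of this kind are a mixture of dendritic and macrophage-like cells, and more open cells and more open chromatin per cell cannot be told apart.

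PAM is not spelled out in the labels; synthetic lipopeptides of that short name are ligands of TLR2, a cell-surface receptor that signals through MyD88 to NF-kB and AP-1 and drives inflammatory cytokine genes. Sendai virus is an RNA virus whose genomes are sensed in the cytoplasm by RIG-I (gene Ddx58), which signals through MAVS to IRF3, IRF7 and NF-kB and induces interferon beta. Secreted interferon then acts through its receptor on transcription factors that bind interferon-stimulated response elements (ISREs) in front of antiviral genes.

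The 8 libraries of the control, PAM, SeV and combined groups held 25162520 to 39977088 counts, of which 45% to 61.85% fell in 1 mitochondrial peak that was left out. The remaining 11213646 to 21985891 counts per library covered 119464 tested peaks. The mitochondrial share was 60.11% to 61.85% in the 2 control libraries and 45% to 50.5% in the 6 others, so comparisons with control cross this gap and those among the 6 do not. It was 62.42% and 60.92% with depleted zymosan and 58.11% and 50.98% with depleted zymosan plus SeV. That comparison too spans a difference in this share, whose part was not tested. With 3',3'-cGAMP, with or without PAM, the share was 44.46% to 47.27%. Values below are CPM, counts scaled to a common library size outside that peak, and a fold is a fitted log2 difference with its standard error (SE). A peak was called where the edgeR quasi-likelihood p-value, adjusted by Benjamini-Hochberg over all tested peaks, was under 0.05. All 10 dendritic and myeloid marker genes and all 7 macrophage markers had a peak at their start. Among T cell markers, Cd3e, Cd3d, Cd3g, Cd8a, Lck and Bcl11b had none, and among B cell markers Pax5, Cd79a and Cd79b had none. The summed CPM per kb over the starts of the dendritic and myeloid markers was 90.9 to 94.3 with PAM, 101 to 102 with SeV and 92.2 to 96.4 with both. For the neutrophil markers, of which 3 of 7 had such a peak and S100a9, Ly6g, Elane and Mpo had none, it was 29.2 to 29.5 with PAM, 21.7 to 23.1 with SeV and 22.4 to 26.1 with both; the part of these shifts in the results was not tested.

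The promoters of 5 genes were picked for display, and each holds letters through which these pathways are known to act. Not every gene opened by the virus has them. The windows of Oasl1 (log2 1.84 over PAM, adjusted p = 1.6e-32), Cmpk2, Herc6 and Samhd1 held 0 ISRE cores, though their peaks were called higher than with PAM. Those of Ifit1, Ifit3 and Irgm1, also called higher, held ISRE cores. Of the 5 genes below, Ifnb1, Isg15, Rsad2 and Cxcl10 had start-site peaks that the virus opened with or without PAM, and Il6 had a start-site peak that was higher with both ligands than with either. Each line gives the 250 bases before the start site, 5′ to 3′ on the strand of the gene, from RefSeq on GRCm38.p6. Capitals mark matches, on either strand, to the ISRE core GAAANNGAAA in Isg15, Rsad2 and Cxcl10, to the NF-kB consensus in Ifnb1, Cxcl10 and Il6, and to the AP-1 site TGANTCA in Il6; Rsad2 and Cxcl10 also hold 1 AP-1 match each, left in lower case.
Ifnb1 (chr4:88522795-88523044, minus strand): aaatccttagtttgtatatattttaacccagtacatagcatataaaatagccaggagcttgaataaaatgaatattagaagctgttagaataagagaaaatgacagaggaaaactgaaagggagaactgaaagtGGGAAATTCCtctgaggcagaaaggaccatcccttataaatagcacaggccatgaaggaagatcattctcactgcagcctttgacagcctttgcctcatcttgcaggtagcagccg
Isg15 (chr4:156200819-156201068, minus strand): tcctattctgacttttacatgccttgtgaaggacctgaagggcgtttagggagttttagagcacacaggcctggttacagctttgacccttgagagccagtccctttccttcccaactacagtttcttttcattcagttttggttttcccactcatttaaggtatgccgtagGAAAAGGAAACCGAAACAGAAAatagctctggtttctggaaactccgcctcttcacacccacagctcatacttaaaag
Rsad2 (chr12:26456453-26456702, minus strand): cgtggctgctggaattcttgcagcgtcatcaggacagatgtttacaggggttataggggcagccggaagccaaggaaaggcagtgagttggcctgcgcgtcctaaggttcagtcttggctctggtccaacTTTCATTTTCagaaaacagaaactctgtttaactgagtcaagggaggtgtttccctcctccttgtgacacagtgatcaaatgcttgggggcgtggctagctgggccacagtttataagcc
Cxcl10 (chr5:92348890-92349139, minus strand): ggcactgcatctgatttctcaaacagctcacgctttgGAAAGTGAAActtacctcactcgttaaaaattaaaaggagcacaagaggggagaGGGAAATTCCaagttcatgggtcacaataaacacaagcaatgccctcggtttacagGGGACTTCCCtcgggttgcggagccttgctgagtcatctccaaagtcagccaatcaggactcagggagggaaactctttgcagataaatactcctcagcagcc
Il6 (chr5:30012864-30013113, plus strand): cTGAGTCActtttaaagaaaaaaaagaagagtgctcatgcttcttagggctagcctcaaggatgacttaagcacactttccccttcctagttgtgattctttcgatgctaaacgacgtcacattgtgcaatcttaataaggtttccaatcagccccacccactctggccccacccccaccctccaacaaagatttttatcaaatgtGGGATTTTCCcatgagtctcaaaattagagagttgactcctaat
Isg15 held 3 overlapping ISRE cores between 78 and 57 bases before its start. Ifnb1 held 1 NF-kB match, at 116 to 107 bases before its start, and Il6 held 1 NF-kB match at 44 to 35 bases and 1 AP-1 match at 249 to 243 bases. Over 12722 promoter windows of 250 bases that a tested peak overlapped, 2.92% held an ISRE core, 4.83% the NF-kB consensus and 5.05% the AP-1 site. Among the 1099 windows whose peak was called higher with PAM plus SeV than with PAM, the shares were 5.73%, 7.01% and 7.92%. Among the 143 of these whose peak was called at least 2-fold higher, they were 12.6%, 11.2% and 17.5%. The 799 windows whose peak was called lower than with PAM gave 1.75%, 3.63% and 6.51%, so the AP-1 share was above 5.05% in both directions. Among the 93 windows whose peak was called higher with PAM plus SeV than with SeV, they were 5.38%, 6.45% and 9.68%, and among the 133 called lower they were 5.26%, 10.5% and 6.02%. A match is a run of letters, not a bound site.

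More peaks were called for the virus added to PAM than for PAM added to the virus. Against PAM alone, 21663 peaks were called (18.1% of those tested), 11178 higher (9.36%) and 10485 lower (8.78%) with PAM plus SeV. Against SeV alone, 3505 peaks were called (2.93%), 2917 higher (2.44%) and 588 lower (0.492%). At least 2-fold changes followed the same order, with 7526 higher and 5545 lower against PAM, and 1786 higher and 189 lower against SeV. The 2 comparisons share the combined libraries, and the difference between their counts was not itself tested. Scaling by total counts moved the split against PAM from 51.6% higher to 62.1% higher. Each call count fell by more than 1.5 times when 1 library was left out: against PAM to 14359 and 12010 without replicate 1 or 2 of PAM plus SeV and to 14228 and 13558 without replicate 1 or 2 of PAM, and against SeV to 1921, 1553, 1340 and 1714 without replicate 1 or 2 of PAM plus SeV and of SeV.

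Peaks that the virus opened or closed by itself tended to move the same way when it was added to PAM. Across the 119464 peaks the effect of SeV on unstimulated cells and on PAM-treated cells, estimated from 4 groups with no library in common, correlated at r = 0.539; peaks are not independent replicates, and libraries share peak widths and base composition. The effect of PAM on unstimulated and on virus-treated cells, also without shared libraries, correlated at r = 0.36. On other backgrounds the values were 0.507 for SeV on depleted zymosan against SeV on PAM, and 0.44 for PAM on 3',3'-cGAMP against PAM on SeV. Of the peaks called higher with PAM plus SeV than with PAM, 3631 were called higher by SeV on depleted zymosan, or 32.5% against 6.63% of all peaks. Of those called lower, 4903 were called lower there, or 46.8% against 8.53%.

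**Figure D1:**
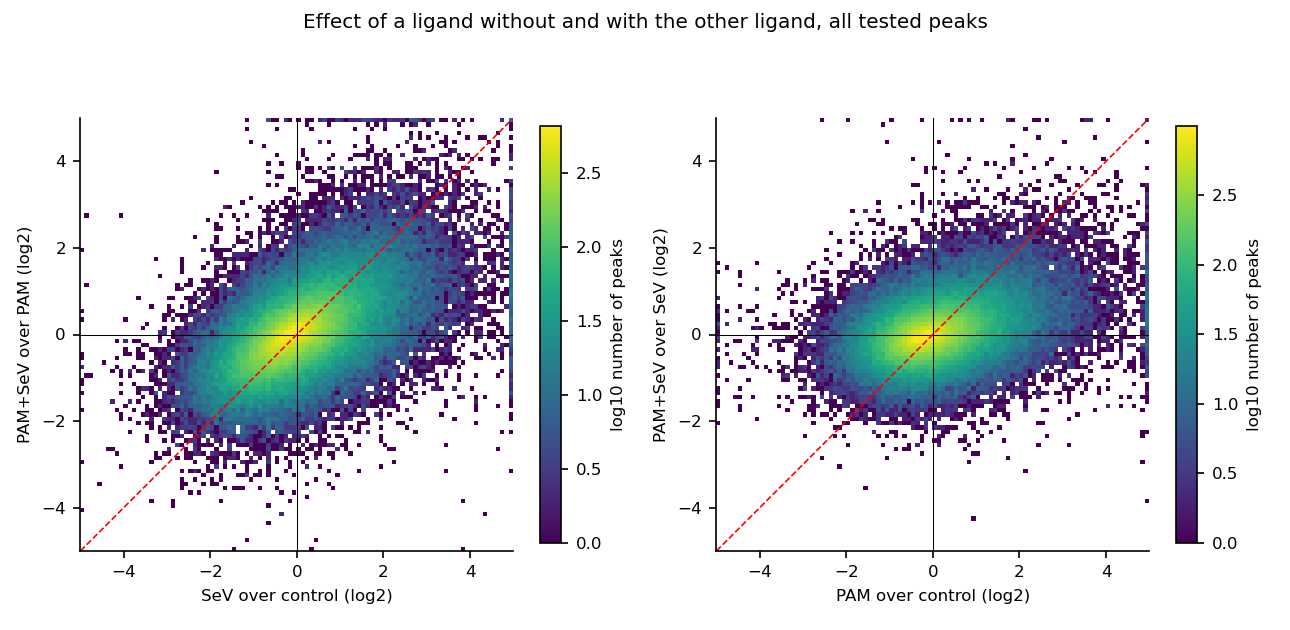
Each small square counts peaks by their log2 fold change for a ligand on unstimulated cells (horizontal axis) and on cells given the other ligand (vertical axis); the red dashed line marks equal effects and values beyond 5 are drawn at the edge. The cloud for SeV (left, r = 0.539) is steeper than that for PAM (right, r = 0.36), whose vertical spread is smaller.

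The peaks that the virus opened were taken as those called at least 2-fold higher in SeV than in control, 12746 or 10.7% of all tested (27.9% were called in either direction). Their median log2 fold change was 1.86 on unstimulated cells and 0.847 on PAM-treated cells, and the median difference between PAM plus SeV and SeV was -0.0656. Of them 481 (3.77%) were called higher with PAM plus SeV than with SeV, and 136 (1.07%) were called lower. Over all peaks the shares were 2.44% higher and 0.492% lower. The SeV libraries enter both the choice and the comparison. When virus-opened peaks were instead taken from depleted zymosan plus SeV against depleted zymosan, 5628 peaks (4.71%) with no library in common with the test, 150 were called higher and 33 lower, or 2.67% and 0.586%, close to the shares over all peaks. In that set the median effect of SeV was 1.34 without PAM and 1.04 with it. Scaling by total counts raised the 481 to 804. Without replicate 1 or 2 of PAM plus SeV and of SeV, the counts higher were 301, 239, 180 and 200, and the counts lower were 37, 44, 37 and 56.

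At the interferon beta gene the virus opened chromatin with or without PAM, and no difference between SeV and PAM plus SeV was called. The peak 119 bp past the 3′ end of Ifnb1 (chr4:88519372-88521906, GRCm38 numbering throughout), which encodes interferon beta, stood at 20.3 and 22.9 CPM with SeV, 22.3 and 17.7 with both ligands, 1.22 and 1.3 with PAM and 3.28 and 1.83 in control. The SeV and combined libraries overlapped, and both lay far above the PAM and control libraries. The fold of PAM plus SeV over PAM was 3.97 (SE 0.271, adjusted p = 1.32e-29), and that over SeV was -0.12 (95% interval -0.52 to 0.28, adjusted p = 0.853). The neighbouring peak over the printed promoter (chr4:88522158-88523152) gave 9.62 and 10.4 with SeV, 8.66 and 7.63 with both, 1.37 and 2.02 with PAM, and 1.31 and 2.03 in control.

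Interferon-stimulated genes had many peaks higher with the virus added to PAM. Of 296 tested peaks within the bodies or 10000 bp flanks of 32 such genes, 125 were called higher and 2 lower with PAM plus SeV than with PAM, with a median log2 difference of 0.88 against 0.0141 over all peaks, of which 9.36% were called higher and 8.78% lower. Against SeV alone, 3 were called higher and 7 lower, with a median of -0.149. Both directions together make 3.38% of the list, near the 2.93% called over all peaks. The directions differed: over all peaks 2.44% were called higher and 0.492% lower, while the list had more lower than higher. The higher peaks in the first comparison lay at 29 of the 32 genes; neighbouring genes such as Ifit2 and Ifit3, or Rsad2 and Cmpk2, share peaks. Ifit2 (chr19:34572687-34579247), one of the interferon-induced proteins that bind viral RNA, rose from 4.88 and 2.82 CPM with PAM to 49.1 and 44.5 with both, beside 54.8 and 57.0 with SeV and 8.85 and 5.02 in control. Its fold over PAM was 3.61 (SE 0.154, adjusted p = 5.83e-52) and over SeV -0.26 (SE 0.111, 95% interval -0.49 to -0.03, adjusted p = 0.237), both combined libraries lying below both SeV libraries. Oasl1 (chr5:114930687-114933784), of the oligoadenylate synthetase-like family, gave 1.75 and 1.66 with PAM, 15.4 and 20.2 with SeV and 22.6 and 21.8 with both, and its fold over PAM was 3.69 (SE 0.218, adjusted p = 2.91e-36). The broad peak over Rsad2 (chr12:26438731-26453446), the gene for the antiviral enzyme viperin, held 31.4 and 34.7 with PAM, 183 and 179 with SeV and 173 and 146 with both. Its fold over SeV was -0.18 (95% interval -0.36 to -0.0019, adjusted p = 0.306), and at Cxcl10 (chr5:92344162-92349984), a chemokine gene induced by interferon, it was -0.21 (-0.41 to -0.0001, adjusted p = 0.314). For both genes the combined libraries lay below the SeV libraries and far above the PAM libraries, and the difference from SeV did not pass the test. A 200-base peak near Rtp4 had 0 counts in both PAM libraries and 0.941 and 0.646 CPM with both ligands, at least 3.56-fold higher against a floor of 3 counts per library.

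The 7 interferon-stimulated gene peaks that were lower with PAM than without it on the virus background lay at Ifi44, Ifit3, Herc6, Cmpk2, Eif2ak2, Igtp (beside a start or end of its neighbour Irgm2) and Samhd1 (beside a start or end of its neighbour Tldc2); they are named as a full set after their values were seen. The peak within 1000 bp of a start or end of Ifi44, an interferon-induced gene, stood at 7.98 and 8.12 CPM with SeV, 2.89 and 3.63 with both, 1.91 and 2.17 with PAM and 3.06 and 2.60 in control, a fold over SeV of -1.29 (SE 0.246, adjusted p = 9.25e-05). The combined libraries overlapped the control libraries there. A peak inside Ifit3, other than the one shared with Ifit2, fell from 12.0 and 11 to 6.40 and 4.89 (log2 -1.04, adjusted p = 0.000523). It held 3.28 and 5.11 in control and 2.14 and 0.939 with PAM (-1.47 over control, adjusted p = 0.000209). A peak inside Herc6 fell from 5.95 and 6.95 to 3.14 and 2.95 (-1.09, adjusted p = 0.00481). The virus effect without and with PAM was 1.44 and 1.86 at Ifit3 and 2.42 and 3.47 at Cmpk2. It was 1.51 and 0.69 at Ifi44, 1.59 and 0.18 at Herc6 and 0.95 and 0.73 at Samhd1. The Eif2ak2 and Igtp peaks were not called between SeV and control (adjusted p = 0.401 and 0.137). The 3 that were higher lay inside Parp14 (2 peaks) and near Mx1, in the body of its neighbour Fam3b.

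Blunted peaks here are virus-opened peaks that were called lower with PAM plus SeV than with SeV. The clearest lay inside Traf5 (chr1:192057299-192058009), which encodes an adaptor of TNF receptor family signalling. It stood at 20.5 and 18.6 CPM with SeV and 5.96 and 6.99 with both, against 1.3 and 1.23 with PAM and 2.40 and 0.772 in control. The SeV and combined libraries did not overlap, and the fold over SeV was -1.58 (SE 0.214, adjusted p = 3.83e-09); the virus still raised it over PAM (2.36, adjusted p = 4.87e-11). A peak 7107 bp from Dmrtb1 (chr4:107668507-107669181) fell from 7.26 and 8.86 to 1.82 and 2.83, the latter about the control values of 1.75 and 1.83, with a fold of -1.76 (SE 0.288, adjusted p = 2.1e-06). A peak 14975 bp from Rasgrp1 (chr2:117357852-117358310), which encodes an activator of Ras, fell from 6.22 and 6.83 to 2.07 and 2.54 (-1.48, adjusted p = 0.000692). Peaks near Eif3f, Cited2 and Srd5a2 followed with folds of -1.60, -1.57 and -1.35, and each lost its call when 1 library was left out: near Eif3f adjusted p = 0.0782 without replicate 1 of PAM plus SeV, near Cited2 0.105 without replicate 2 of PAM plus SeV and 0.107 without replicate 1 of SeV, and near Srd5a2 0.0507 and 0.11 without replicate 1 or 2 of PAM plus SeV and 0.165 without replicate 2 of SeV.

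Over all 136 blunted peaks the median fold over SeV was -1.03, a sign fixed by the choice, and 58 were still called higher with both ligands than with PAM. In the test of additivity described below, 46 of the 136 were called below it (33.8%, against 18.1% of virus-opened peaks and 2.9% of all peaks) and 0 above. That test shares libraries with the choice. Most of the 136 thus had no called departure from additivity, the Dmrtb1 peak among them (-1.03, adjusted p = 0.298). The 136 were measured again in cells given 3',3'-cGAMP, a cyclic dinucleotide that activates STING and so induces type I interferon. There PAM plus 3',3'-cGAMP was set against 3',3'-cGAMP in 4 libraries that had no part in choosing them. There 35 of the 136 were called lower (25.7%, against 3.52% of all peaks), 0 were called higher (5.59% of all peaks), and the median was -0.403 against -0.00946 over all peaks. The Dmrtb1 peak was among those called lower there (log2 -1.37, SE 0.319, adjusted p = 0.00116), while the Traf5 peak was not called (-0.32, SE 0.244, adjusted p = 0.485).

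The peaks that PAM raised above the virus level were mostly peaks that PAM also opened alone: 463 of the 481 were called higher in PAM than in control (96.3%, against 35.5% of virus-opened peaks and 11.1% of all peaks), and the PAM libraries are in neither of the comparisons that chose them, although control libraries are shared. The largest was 162006 bp from Ibtk (chr9:85524612-85525353), at 2.09 and 1.48 CPM with SeV, 17.3 and 17.7 with both, 28.2 and 29.5 with PAM and 0.656 and 0.965 in control. Its fold over SeV was 3.29 (SE 0.227, adjusted p = 4.58e-28), and it remained below the PAM level (-0.72, SE 0.167, adjusted p = 0.000475). A peak inside Clec16a (chr16:10584479-10585514) went from 3.21 and 2.21 to 16.2 and 15.3, beside 20.2 and 23.7 with PAM, a fold over SeV of 2.54 (adjusted p = 4.69e-19). Other raised peaks were higher with both than with either ligand. The peak 9034 bp from Gna13 (chr11:109410403-109410960), which encodes a G protein alpha subunit, held 5.49 and 3.68 with PAM, 2.22 and 1.78 with SeV and 12.9 and 12.7 with both. The peak inside Gm5544 (chr3:97947516-97948041) held 2.59 and 3.11 with PAM, 1.18 and 1.85 with SeV and 11.2 and 9.89 with both. In the 3',3'-cGAMP libraries 425 of the 481 raised peaks were called higher with PAM, or 88.4% against 5.59% of all peaks.

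In all, 396 peaks (0.331%) were called higher with both ligands than with each alone, and 115 (0.0963%) were called lower. Of the 396, 118 were called in neither single comparison with control, in which 20.5% of peaks were called for PAM and 27.9% for SeV; their median was 0.262 for PAM and 0.273 for SeV over control, and 1.35 and 1.36 for the combination over PAM and over SeV. Without replicate 1 or 2 of PAM plus SeV, replicate 1 of PAM, and replicate 1 or 2 of SeV the 396 became 192, 141, 245, 165 and 202, and the 115 became 54, 48, 65, 34 and 37. The share within 1000 bp of a gene start or, where strand was unknown, of either gene end was 5.81% for the 396 and 24.3% for the 115, against 13.3% of all tested peaks. The same contrast held for all peaks that PAM moved on the virus background: 4.42% of those called higher and 25.7% of those called lower lay there. Of the 588 called lower, 247 were called lower by PAM on 3',3'-cGAMP (42% against 3.52%), and of the 2917 called higher, 1994 were called higher there (68.4% against 5.59%).

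Il6, which encodes the inflammatory cytokine interleukin 6, was the cytokine locus with the most peaks raised by PAM on the virus background. It had 14 tested peaks within 10000 bp (gene at chr5:30013114-30019975, plus strand). Of these, 9 were called higher with both ligands than with SeV, 8 higher than with PAM, 7 higher than with each, and 0 lower in either comparison. Over all peaks the shares called higher were 2.44%, 9.36% and 0.331% in that order. The peaks called against SeV between the start-site peak and the gene end were low, with combined means of 1.03 to 3.78 CPM. At the start site (chr5:30012594-30013781), over the promoter printed above, the values were 6.88 and 8.88 CPM in control, 19.9 and 20.7 with PAM, 18.8 and 20.1 with SeV and 25.5 and 30.9 with both. The PAM and SeV libraries overlapped, and the combined libraries lay above all of them, with folds of 0.54 over SeV (SE 0.131, adjusted p = 0.00471) and 0.48 over PAM (SE 0.133, adjusted p = 0.00421). Past the 3′ end (chr5:30021251-30023211) the values were 0.874 and 0.965 in control, 2.29 and 4.98 with PAM, 1.5 and 1.72 with SeV and 16.8 and 12.6 with both. The folds there were 3.17 over SeV (SE 0.287, adjusted p = 4.84e-18) and 2.00 over PAM (SE 0.26, adjusted p = 2.18e-10). The adjacent peak 32 bp past the gene (chr5:30020007-30021085) held 2.44 and 2.02, 1.11 and 1.05, and 6.46 and 6.42 in the same order of PAM, SeV and both. PAM plus 3',3'-cGAMP over 3',3'-cGAMP was also higher at these 2 peaks (log2 3.37, adjusted p = 1.8e-17, and 5.08, adjusted p = 4.27e-15). Of 42 peaks from 160 kb before to 30 kb after the start, 18 were called higher than with SeV and 9 higher than with PAM. The far upstream peak 77701 bp from Dnajb6 (chr5:29864179-29864878) followed PAM, at 10.8 and 8.74 with PAM, 9.79 and 12.9 with both and 1.44 and 1.29 with SeV.

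**Figure D2:**
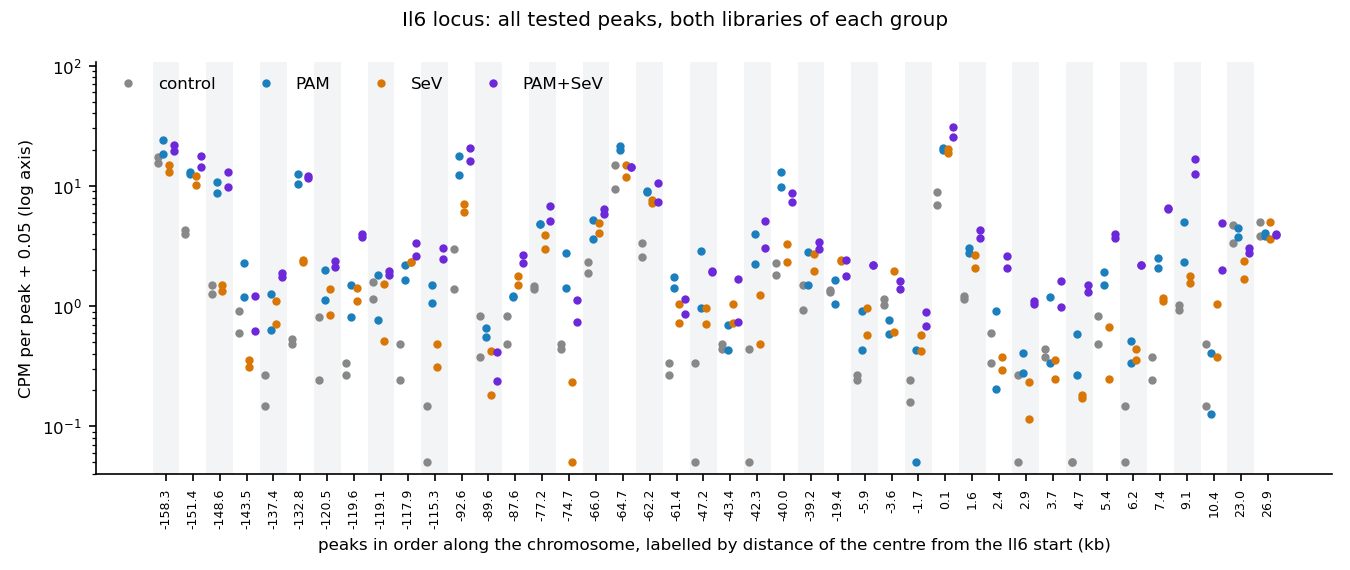
CPM plus 0.05 (log axis) in both libraries of each group at the 42 tested peaks around Il6, in chromosome order and labelled by distance of the peak centre from the Il6 start in kb. The combined libraries are the highest at the start (25.5 and 30.9 CPM) and at the peaks from there to 10.45 kb except the one at 3.68 kb, where a PAM library (1.14 CPM) lies above a combined library (0.941), while several upstream peaks have PAM and combined libraries together above SeV.

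Il6 belongs to a list of inflammatory cytokine genes that had more peaks higher than lower in both comparisons. Over 239 peaks at 29 such genes, 63 were called higher and 13 lower against PAM (median 0.311; 31.8% called against 18.1% of all peaks), and 34 were called higher and 3 lower against SeV (median 0.296; 15.5% against 2.93%), the higher peaks lying at 17 genes in each comparison. The 13 lower than with PAM included start-site peaks of Cxcl3 (-1.80, adjusted p = 1.67e-11), Cxcl2 (-0.52, adjusted p = 6.37e-06) and Il12b (-0.75, adjusted p = 0.0327). At Ccl5 (chr11:83521831-83527834), a chemokine gene for T cells and monocytes, the peak over the gene held 5.14 and 4.44 CPM in control, 11.4 and 13.5 with PAM, 93.8 and 91.0 with SeV and 129 and 110 with both. Its folds were 3.26 over PAM (SE 0.119, adjusted p = 7.57e-60) and 0.37 over SeV (SE 0.0987, adjusted p = 0.0154). At Il12b, encoding the p40 subunit shared by interleukins 12 and 23, the peak 9330 bp away (chr11:44389800-44390733) held 36.9 and 35.5 with PAM, 24.9 and 25.5 with SeV and 39.5 and 40.2 with both; it was above SeV (0.66, SE 0.115, adjusted p = 1.13e-05) and not called against PAM (0.14, adjusted p = 0.442). Near Tnf, in the flank by Lta (chr17:35209696-35210996), it was the reverse: 13.4 and 12.3 with PAM, 22.2 and 17.5 with SeV and 26.7 and 26.7 with both, above PAM (1.06, adjusted p = 4.4e-09) and not called against SeV (0.43, adjusted p = 0.0735). A peak 2520 bp from Il27 gave 0.916 and 0.217 with PAM, 5.17 and 5.04 with SeV and 5.77 and 9.13 with both (3.73 over PAM, adjusted p = 6.58e-14). At Nos2, the inducible nitric oxide synthase gene, 3 of 19 peaks were called higher than with SeV and 8 higher than with PAM. Over all peaks these shares were 2.44% and 9.36%. The Nos2 peak beside its start or end held 2.98 and 2.60 with PAM, 4.12 and 4.18 with SeV and 7.90 and 6.62 with both. The 3 peaks called lower than with SeV all lay at Il15, a cytokine gene that interferon induces: the one beside its start or end held 31.6 and 32.0 in control, 32.6 and 26.4 with PAM, 68.4 and 64.0 with SeV and 52.2 and 50.1 with both (-0.37, adjusted p = 0.0137).

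At some loci the virus lowered what PAM opened. Peaks called at least 2-fold higher in PAM than in control numbered 9885 (8.27%). Of these, 2105 (21.3%) were called lower and 837 (8.47%) higher with both ligands than with PAM. Over all peaks the shares were 8.78% lower and 9.36% higher. The PAM libraries enter both the choice and the comparison. Chosen instead from PAM plus 3',3'-cGAMP over 3',3'-cGAMP, with no library in common, 4891 peaks (4.09%) gave 1030 lower and 565 higher, or 21.1% and 11.6%, and PAM raised them by a median of 1.47 without virus and 0.841 with it. Scaling by total counts raised the 837 to 1609. Without replicate 1 or 2 of PAM plus SeV or replicate 2 of PAM, the 2105 became 1256, 1172 and 1150, and without replicate 2 of PAM plus SeV or replicate 1 or 2 of PAM the 837 became 501, 388 and 388. At Il1b, encoding interleukin 1 beta, a peak in the gene body (chr2:129363814-129365242) held 0.656 and 0.579 CPM in control, 5.11 and 5.56 with PAM, 0.720 and 0.738 with SeV and 2.57 and 2.10 with both. The combined libraries lay between those of the singles, with a fold of -1.20 over PAM (SE 0.33, adjusted p = 0.00402; 0.0959 without replicate 2 of PAM plus SeV) and 1.65 over SeV (SE 0.417, adjusted p = 0.00731). A peak 185134 bp from Eif4g2 (chr7:111268164-111268689) held 3.28 and 4.73 in control, 8.47 and 10.0 with PAM, 0.785 and 1.54 with SeV and 1.00 and 0.808 with both, a fold over PAM of -3.36 (SE 0.394, adjusted p = 1.39e-12). Peaks inside Dctn4 and Itgb8 and 154333 bp from Rgs18 followed, with folds over PAM of -3.20, -2.85 and -2.85. A peak 968 bp from Lyz2 (chr10:117275225-117276573), the lysozyme gene of myeloid cells, was open without any ligand (21.3 and 16.1) and with PAM (12.9 and 22.0) and nearly closed with SeV (2.94 and 2.15) and with both (1.38 and 1.09).

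Virus-sensing genes taken as a list had more peaks higher than lower with the virus added, mostly at Ifih1 and Trim25. Of 132 peaks at 10 virus-sensing genes, 31 were called higher and 5 lower than with PAM (27.3% called, against 18.1% of all peaks), and 2 higher and 1 lower than with SeV (2.27%, near the 2.93% of all peaks). Of the 31, 16 lay at Ifih1, which had 42 of the 132 peaks, and 8 at Trim25. Ddx58 had 1 higher and 1 lower, and Mavs, Tbk1 and Irf3 had 0 higher. Near Ifih1 (chr2:62587194-62592006), the gene for the RNA sensor MDA5, values were 9 and 10.8 with PAM, 40.8 and 45.4 with SeV and 44.2 and 36.6 with both (2.02 over PAM, adjusted p = 3.03e-32). Near Trim25, encoding a ubiquitin ligase of the RIG-I pathway, they were 0.839 and 1.3, 8.77 and 9.47, and 7.28 and 8.04 in that order. Of 110 peaks at type I interferon response genes, 13 were called higher and 7 lower than with PAM (18.2%, at the 18.1% of all peaks), and 5 higher and 2 lower than with SeV (6.36% against 2.93%). Inside Ifnar2, a chain of the interferon receptor, PAM raised the virus level from 1.83 and 2.71 to 6.96 and 8.28 (1.75, adjusted p = 2.36e-08), while PAM alone gave 16.4 and 20.2.

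Genes of the TLR2 pathway had more peaks lower than higher with the virus added. Of 144 peaks at 16 of them, 5 were called higher and 25 lower than with PAM (median -0.225; 20.8% called against 18.1% of all peaks), and 9 higher and 0 lower than with SeV (median 0.074; 6.25% against 2.93%). Inside Irak2, encoding a kinase downstream of MyD88, values were 7.40 and 7.37 with PAM, 1.05 and 1.72 with SeV and 5.71 and 4.2 with both (1.81 over SeV, adjusted p = 1.57e-05). Inside Irak3, whose product restrains that signalling, a peak fell from 7.86 and 8.09 with PAM to 3.07 and 2.26 with both (-1.60, adjusted p = 1.39e-05). Inside Traf6, a ubiquitin ligase of the pathway, one fell from 5.26 and 7.66 to 2.45 and 2.14 (-1.5, adjusted p = 0.000114). A peak inside Ikbkg, of 0.131 and 0.123 with SeV and 1.07 and 0.848 with both, had the largest fold over SeV (2.81, adjusted p = 0.0163), which was lost without any 1 of the 4 libraries (adjusted p = 0.0571 to 0.177). At Tlr2 itself, an intragenic peak (chr3:83839159-83840016) held 16.9 and 16.5 with PAM, 11 and 11 with SeV and 10.9 and 10.1 with both (-0.67 over PAM, adjusted p = 0.00249; 0.0605 without replicate 2 of PAM plus SeV).

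NF-kB subunits and inhibitors had 20 peaks of 168 called higher and 12 lower than with PAM (19%, near the 18.1% of all peaks), and 8 higher and 3 lower than with SeV (6.55% against 2.93%). Of the 8, 5 lay inside Nfkb1, which encodes the p50 precursor; one of these held 18 and 20.7 with PAM, 12.0 and 11.1 with SeV and 21.8 and 21.7 with both. The 3 lower ones lay at Nfkbiz, Nfkbie and Nfkbid, which encode atypical or classical inhibitor-of-NF-kB proteins. Feedback regulators had 21 of 153 peaks called higher and 18 lower than with PAM (25.5% against 18.1%), and 13 higher and 0 lower than with SeV (8.5% against 2.93%). Beside the start or end of Socs3, a suppressor of cytokine signalling, values were 43.7 and 41.7 with PAM, 29.9 and 31.0 with SeV and 46.7 and 45.6 with both (0.60 over SeV, adjusted p = 1.99e-05). Inside Tnip3, an NF-kB inhibitor binding A20, a peak fell from 8.93 and 10.8 with PAM to 3.58 and 3.15 (-1.56, adjusted p = 1.21e-07).

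Maturation and class I presentation genes had more peaks higher than lower with the virus added. Of 149 peaks at 13 dendritic cell maturation genes, 39 were called higher, at 12 of the genes, and 2 lower than with PAM (27.5% against 18.1%), and 2 higher and 1 lower than with SeV (2.01% against 2.93%). Inside Cd86, a costimulatory ligand gene, values were 2.29 and 1.66 with PAM, 8.44 and 10.6 with SeV and 7.47 and 8.56 with both (2.03 over PAM, adjusted p = 1.67e-10). By Cd274, encoding PD-L1, they were 6.64 and 6.86, 18.1 and 21.5, and 21.7 and 19.1 (1.59, adjusted p = 4.34e-16). Of 76 peaks at 11 MHC class I and peptide-loading genes, 20 were called higher than with PAM, at all 11 genes, and 0 lower (26.3% against 18.1%). Neighbouring genes such as Tap1, Psmb8 and Psmb9 share peaks, so the 11 genes are not separate counts. Against SeV, 0 of the 76 were called by edgeR, where 2.93% of all peaks were. Inside Nlrc5, the transactivator of class I genes, values were 0.610 and 0.289 with PAM, 3.07 and 2.58 with SeV and 2.57 and 2.42 with both (2.46, adjusted p = 0.000285). Of 61 peaks at MHC class II genes, 2 were called higher than with PAM and 0 lower, and 0 were called against SeV, below the 18.1% and 2.93% called over all peaks.

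**Figure D3:**
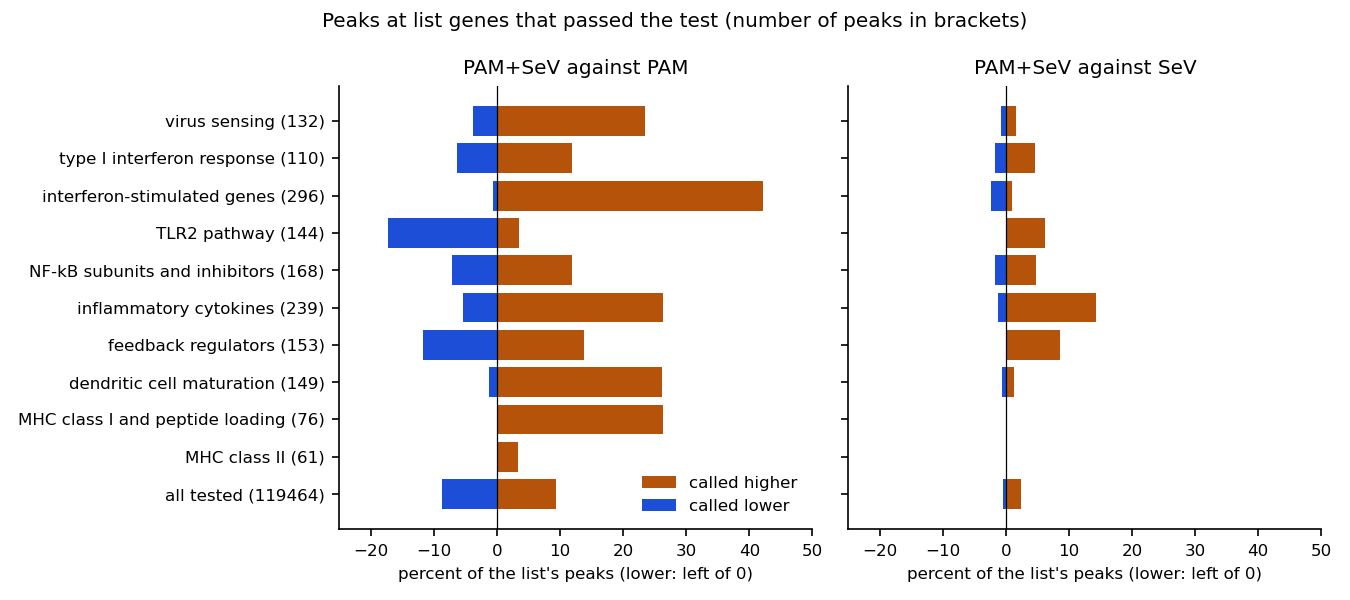
Percent of each gene list's peaks called higher (orange, right of 0) or lower (blue, left of 0) with PAM plus SeV than with PAM (left) or SeV (right); numbers of peaks are in brackets. Against PAM, 125 of 296 interferon-stimulated gene peaks rose and 25 of 144 TLR2 pathway peaks fell; against SeV, inflammatory cytokine genes had the most, 34 of 239 higher.

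Additivity on the log2 scale was tested as the combined effect minus both single effects, a contrast that holds the control libraries. It called 5478 peaks (4.59%), 3470 below additivity (2.9%) and 2008 above it (1.68%). Of the 3470, 79.9% were called higher in each single, with median log2 changes over control of 1.77 for PAM, 1.49 for SeV and 1.63 for both. These libraries also make the contrast that chose the peaks, so the order of control, singles and combination is partly fixed by the choice, for these and for the 2008. Of the 2008, 69.7% were called lower in each single, with medians of -0.951, -0.916 and -0.758. Inside Nfkb1 (chr3:135640041-135640780), for example, values were 1.53 and 1.25 CPM in control, 21.8 and 22.4 with PAM, 20.3 and 21.6 with SeV and 24.2 and 25.6 with both. Scaling by total counts moved the split from 36.7% above additivity to 7.73%, with a median over all peaks of -0.259 in place of 0.0249. The mitochondrial share separates control from the 3 other groups, so it and stimulation cannot be told apart here. Without replicate 1 of PAM plus SeV, replicate 2 of PAM, replicate 1 of SeV or replicate 1 of control the count was 3454, 3544, 3455 and 3343.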

How the data were processed

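The authors deposited raw counts per peak for 36 ATAC-seq libraries, 2 in each of 18 groups. The submitters' processing notes name mm10, Bowtie2 2.2.9, MACS2, bedtools and featureCounts; their settings, and the handling of read pairs and duplicates, are not given in the sources used here. Of 119751 peaks, 119464 were tested after leaving out 1 mitochondrial peak and filtering on low counts (filterByExpr, minimum count 10). The test was edgeR 4.0.16 quasi-likelihood (R 4.3.3) with TMM scaling, on all 36 libraries in 1 fit with 18 residual degrees of freedom, p-values adjusted by Benjamini-Hochberg per contrast and called under 0.05. SE is the log2 fold change divided by the square root of F, and 95% intervals use it. On simulated data the test against SeV missed all of the smaller changes and most of the 2-fold ones, so a missing call does not show that levels were alike.

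The members, gene lists and markers were chosen with earlier results of these data known. Named peaks are those with the largest changes among called peaks with a mean of at least 5 CPM and groups that do not overlap, the strongest interactions, and the peak with the lowest adjusted p at list genes. Peaks at Ifi44, Ifit3, Herc6, Nos2 and Socs3, the Il15 peak beside its start or end, the Il6 start-site peak, the Ifnb1 promoter peak and the second Nfkb1 peak were named after their values were seen. So were the start-site peaks of Cxcl2, Cxcl3 and Il12b, and the genes given as examples with or without an ISRE core. Peaks were assigned with RefSeq GRCm38.p6 gene bounds, all 205 list genes matching. Peak sequences were not used here, so motifs were searched in promoter windows, a choice made after the data were seen. Counts at the same replicate number did not deviate together between groups (r from -0.00682 to 0.0224). Alternatives were other scalings, DESeq2 1.42.0, filters, depth, thresholds, a replicate block and leaving out each library. Results for some genes are not reported here.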

Additional observations from a re-analysis of the deposited data

Results flagged for a closer look

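The interaction of PAM and SeV was tested directly, and 5478 peaks departed from additivity on the log2 scale, 3470 below it and 2008 above it (edgeR quasi-likelihood test, adjusted p under 0.05). The 6 peaks with the lowest adjusted p all lay below additivity. The peak inside Ell2, an elongation factor gene, held 2.84 and 2.70 CPM in control, 40.8 and 54.5 with PAM, 20.9 and 21.2 with SeV and 34.6 and 32.7 with both, an interaction of -3.43. Inside Alcam, an adhesion molecule gene, the interaction was -2.83, with 44.6 and 42.4 CPM with PAM, 34.8 and 40.8 with SeV and 51.1 and 48.1 with both. Inside Rbbp8, a DNA repair gene, it was -3.47, and inside Nfkb1 it was -3.74. The peak 89100 bp from Ptgs2, the gene for the prostaglandin synthase COX-2, had an interaction of -2.54 and held 48.7 and 55.6 with PAM, 28.2 and 29.6 with SeV and 41.0 and 42.0 with both. The peak 113740 bp from Mrpl39 had -2.27. In each of the 6, both singles were far above control and the combination was below the product of their folds. The control libraries also differ in mitochondrial share, whose part in these values was not tested.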

How the results depend on the processing

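None of the 100 named peak results changed direction under the alternatives run; 19 lost their call under at least 1. Leaving out 1 library gave 12010 to 14359 peaks called against PAM, 1340 to 1921 against SeV and 3343 to 4646 in the interaction. It gave 37 to 142 virus-opened peaks lower and 180 to 468 higher than with SeV, 1150 to 1914 PAM-opened peaks lower and 388 to 799 higher than with PAM, 141 to 298 peaks higher and 34 to 97 lower than with each ligand, and r = 0.465 to 0.523 for the virus effect. Scaling by total counts gave 804 virus-opened peaks higher, 1609 PAM-opened peaks higher and 54 lower than with each. Thinning to the lowest depth gave 2116 called against SeV, 77 virus-opened peaks lower and 320 higher, 227 higher and 53 lower than with each, and r = 0.504. Fitting only the groups compared gave 6330 against SeV, 215 virus-opened peaks lower, 212 lower than with each and r = 0.561. An adjusted p under 0.01 gave 12755 against PAM, 1829 against SeV, 2579 in the interaction, 44 virus-opened peaks lower and 263 higher, 1192 PAM-opened peaks lower and 431 higher, and 172 higher and 28 lower than with each. Choosing opened peaks from other libraries gave 33 lower and 150 higher for the virus and 1030 lower for PAM, and requiring 2-fold in both gave 152 higher and 30 lower than with each. Fewer libraries, fewer counts or a stricter threshold by construction lower the counts; the cause of the other shifts was not tested.

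With the replicate block, 21457 peaks were called against PAM, 3478 against SeV and 5429 in the interaction, and the counts of opened peaks stayed within 1.5 times of those without it. Numbers are shared by label only.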
